A study of Mus musculus with 2 samples.

Results

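Guidance genes were the subject here: the semaphorins with their plexin and neuropilin receptors, the Slits with the Robos, the netrins with Dcc, Neo1 and the Unc5 receptors, and the ephrins with the Eph receptors. They were chosen by gene symbol, and 67 such genes, carried by 154 probe sets, were found among 18193 genes on the array. RNA of mouse liver at embryonic stage E12.5 was measured on Affymetrix arrays in wild-type C57Bl6 embryos. The first group was mesothelial cells, the epithelium that covers the organ, sorted by FACS on podoplanin (Pdpn) after trypsin digestion. The second was liver cells of the same age and strain, and whether cells carrying Pdpn had been taken out of them is not given in the labels. Each group had 1 array made from 20 ng of RNA, the number of embryos pooled is not given, and no difference could be tested. Every value below describes these 2 arrays.

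These families were first studied as cues that steer growing axons, and they also position cells, vessels and epithelial sheets. Class 3 semaphorins are secreted and bind a neuropilin that is paired with a plexin, while most other semaphorins sit in the membrane and bind plexins directly. Secreted Slits repel cells through Robo receptors, and netrin 1 attracts through Dcc and repels through Unc5 receptors. Ephrins are bound to the cell surface and act on Eph receptor tyrosine kinases of a touching cell, with signals passing both ways. In mouse embryos, loss of Slit3 leaves a defect in the diaphragm, whose surfaces are lined by mesothelium, and Sema3d marks part of the proepicardium, the mesothelial source of the covering of the heart.

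The sorted cells carried the markers of their label. Of 11 mesothelial markers, 10 were above the intensity floor, Pdpn, on which the cells were sorted, among them. All 10 exceeded the liver array at least 2-fold, as did 45.4% of all genes above the floor. Upk3b had 3053 in mesothelial cells against 54.4 in liver cells, Wt1 had 1994 against 102.0, and Pdpn, the sorting marker, was 38.8-fold higher. The hepatoblast genes Alb and Afp were bright on both arrays, at 15683 and 13191 in mesothelial cells against 12832 and 10376 in liver cells. Markers of other cell types also differed, and they are given beside the guidance genes further on.

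A difference is the log2 intensity of mesothelial cells minus the log2 intensity of liver cells, and each gene is represented by its probe set of highest mean log2 intensity. A gene whose difference was at least 1, which is 2-fold, is called mesothelial-high, and one at -1 or lower liver-high. The mesothelial array was brighter as a whole, with a median probe set intensity of 65.8 in mesothelial cells against 42.3 in liver cells, so a second value is given after each array was centred on its median, which takes 0.64 off each difference. A gene was above the floor where its intensity reached the array median on at least 1 array. The 27 probe sets for bacterial transcripts absent from mouse RNA reached at most 16.2 on the mesothelial array and 10.5 on the liver array, and 3 guidance genes in liver cells and 2 in mesothelial cells lay within that level. A fold against such a value was computed against the control level and is written as at least N-fold.

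Guidance genes as a group were higher in mesothelial cells. Their median difference was 1.95 over all 67 genes, against 0.66 over all genes on the array, and 1.31 against 0.03 after centring. Of the 67, 61 read higher in mesothelial cells and 6 read lower, where 77.6% of all genes read higher. Above the floor were 49 guidance genes, of which 41 were mesothelial-high and 1 was liver-high. The background was 45.4% and 3.83% of all genes above the floor, and the guidance genes stood at 83.7% and 2.04%. After centring, 36 of the 49 were mesothelial-high, against a background of 23.9%, and 1 was liver-high, against 9.25%. After quantile normalization the counts were 35 and 2, against 20.7% and 11.1%. At 4-fold, 30 were higher in mesothelial cells against 1 in liver cells, against 15.9% and 1.07%. Passing the floor favoured genes that were bright on 1 array: 14 of the 49, or 28.6%, reached it on the mesothelial array only, against 10.1% of all genes above the floor. Among the 35 that reached it on the liver array, 27 were mesothelial-high, or 77.1%, against 39.6% of all such genes, and 1 was liver-high, against 4.26%. With no floor, 51 of 67 were mesothelial-high, or 76.1%, against 36.2%, and 2 were liver-high, against 4.16%. The genes were chosen with results of these arrays known, so these shares describe the group and test nothing. The numbers of cells that carry a transcript and the RNA per cell cannot be told apart in such pooled RNA.

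**Figure D1:**
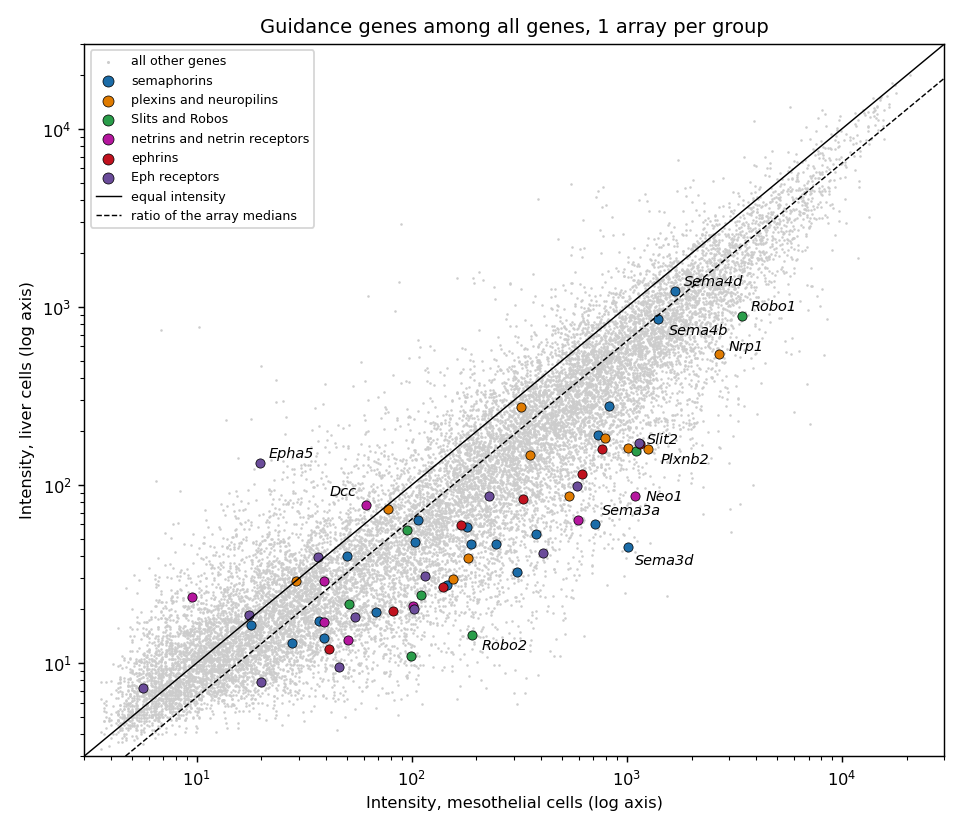
Intensity of each gene in mesothelial cells (horizontal, log axis) and liver cells (vertical, log axis), with guidance genes coloured by family, all other genes in grey, a solid line at equal intensity and a dashed line at the ratio of the array medians. Most guidance genes lie below both lines, with Sema3d (1011 and 45.0) and Robo2 (191 and 14.3) far below them, while Epha5 (19.7 and 132) lies above.

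The brightness of the mesothelial array was not the same at all intensities. When all genes were put into 20 bins of mean log2 intensity, the median difference of a bin ran between 0.03 and 1.10, and the guidance genes lay in bins with a median of 0.94. With the bin median subtracted, an alternative chosen after the data were seen, 51 of the 67 guidance genes stayed above their bin. The median then was 1.15 in guidance genes, against 0 by construction in all genes, and 31 of the 49 were mesothelial-high, against 17.6%. The liver-high genes were then 2, Epha5 and Dcc, against 13.4%.

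The promoters of 5 guidance genes are printed because these genes stood at the ends of the range: the 4 with the largest differences and the 1 with the lowest, among genes above the floor that have a single promoter in the RefSeq table used. The stretches are the 250 bases before the annotated start in build GRCm38.p6, and which start these cells used was not measured. Capitals mark matches, on either strand, to 4 motifs: the GC box GGGCGG, the motif GCGNGGGNG bound by the zinc fingers of the Wt1 and Egr family, the CCAAT box and the TATA box TATAAA. The first 2 of these can overlap each other. Sema3d lies on the plus strand at chr5:12382916-12383165, Neo1 on the minus strand at chr9:59036442-59036691, Sema3a on the plus strand at chr5:13396534-13396783, Epha3 on the minus strand at chr16:63864176-63864425 and Epha5 on the minus strand at chr5:84417383-84417632.
Sema3d: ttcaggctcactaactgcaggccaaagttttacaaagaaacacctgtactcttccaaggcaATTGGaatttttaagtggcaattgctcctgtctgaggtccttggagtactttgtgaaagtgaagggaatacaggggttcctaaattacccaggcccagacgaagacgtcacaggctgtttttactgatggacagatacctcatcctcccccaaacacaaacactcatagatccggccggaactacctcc
Neo1: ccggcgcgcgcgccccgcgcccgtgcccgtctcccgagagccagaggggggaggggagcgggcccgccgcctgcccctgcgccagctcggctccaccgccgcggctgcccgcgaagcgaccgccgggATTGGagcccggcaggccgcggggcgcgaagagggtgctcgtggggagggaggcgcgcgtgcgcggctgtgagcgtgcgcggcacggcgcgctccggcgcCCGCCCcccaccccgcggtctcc
Sema3a: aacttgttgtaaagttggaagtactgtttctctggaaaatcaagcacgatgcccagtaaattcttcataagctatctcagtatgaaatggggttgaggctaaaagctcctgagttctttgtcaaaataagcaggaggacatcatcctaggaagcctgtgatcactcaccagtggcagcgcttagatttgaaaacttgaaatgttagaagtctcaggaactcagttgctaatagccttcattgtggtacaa
Epha3: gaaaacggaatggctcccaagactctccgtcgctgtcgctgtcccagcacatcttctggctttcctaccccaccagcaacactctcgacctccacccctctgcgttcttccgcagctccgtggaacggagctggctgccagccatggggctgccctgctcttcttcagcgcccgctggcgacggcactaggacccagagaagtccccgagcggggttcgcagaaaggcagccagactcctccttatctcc
Epha5: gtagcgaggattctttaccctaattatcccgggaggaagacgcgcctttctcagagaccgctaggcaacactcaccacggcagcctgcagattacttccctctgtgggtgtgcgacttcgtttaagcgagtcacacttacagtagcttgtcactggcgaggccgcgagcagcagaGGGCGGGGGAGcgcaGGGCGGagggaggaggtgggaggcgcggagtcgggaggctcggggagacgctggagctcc
The 5 windows were unlike. Those of Sema3d and Sema3a held 4 and 2 CpG dinucleotides, that of Neo1 held 45, and those of Epha3 and Epha5 held 16 and 20. The Sema3d window had 1 CCAAT box, the Neo1 window 1 GC box and 1 CCAAT box, and the Epha5 window 2 GC boxes and 1 Wt1 and Egr family motif. No match to the 4 motifs stands in the Sema3a and Epha3 windows. Over the 73 promoters listed for 57 of the guidance genes, 72.6% held a GC box, 27.4% the Wt1 and Egr family motif, 27.4% a CCAAT box and 2.74% a TATA box. Over the 32851 promoters of genes of every kind in the table, the shares were 32.7%, 10.5%, 33.8% and 12.4%, and the median number of CpG dinucleotides was 16 in guidance gene promoters and 6 in all promoters. A match to these letters is no evidence of binding.

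Secreted class 3 semaphorins included Sema3d, whose difference of 4.49 was the largest of the guidance genes where the probe set of highest mean stood for the gene. With the median over probe sets Sema3d was at 2.73, below Robo2 at 3.74. Sema3d read 1011 in mesothelial cells against 45.0 in liver cells, 22.5-fold higher. Sema3a, the secreted repellent that collapses growth cones through Nrp1, read 708 in mesothelial cells against 60.1 in liver cells, 11.8-fold higher. Sema3c, which guides cells of the cardiac outflow tract, read 377 in mesothelial cells against 52.8 in liver cells, 7.13-fold higher. Sema3e, which acts on Plxnd1 without a neuropilin, read 146 in mesothelial cells against 27.3 in liver cells, 5.34-fold higher. These 4 genes were thus bright in the sorted cells and near or under the liver array median in liver cells. Sema3f, a ligand of Nrp2, read 103.5 in mesothelial cells against 48.0 in liver cells, a difference of 1.11 that became 0.47 after centring. Its other 2 probe sets gave 2.51 and 2.90, the second with liver cells at the control level, and the median over the 3 was 2.51. Sema3b and Sema3g were under the floor, with differences of 1.11 and 1.51. All 7 class 3 genes were thus higher in mesothelial cells, also after centring, with a median difference of 2.42, or 1.78 after centring. The probe sets of Sema3d and Sema3a were far apart: the second of Sema3d differed by 0.96, and the 3 of Sema3a by 3.56, 2.39 and -0.07. Those of Sema3c and Sema3e were spread too. The second of Sema3c gave 0.84, and the others of Sema3e gave 0.73, 3.40 and 0.86, all under the floor.

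Membrane semaphorins were more mixed. Sema6a, a transmembrane ligand of Plxna2 and Plxna4, read 309.6 in mesothelial cells against 32.3 in liver cells, 9.59-fold higher, while its other 2 probe sets gave differences of only 1.07 and 1.10. Sema5a, which carries thrombospondin repeats, read 246 in mesothelial cells against 46.5 in liver cells, and its relative Sema5b 68.0 and 19.3, which was 5.29-fold and 3.52-fold higher. Among class 4 genes, Sema4a was 4.01-fold, Sema4g 3.85-fold and Sema4c 3.12-fold higher in mesothelial cells. Their intensities in mesothelial cells and liver cells were 188 and 46.9 for Sema4a, 736 and 191 for Sema4g, and 181 and 58.0 for Sema4c. Sema6d read 827 in mesothelial cells against 279 in liver cells, 2.97-fold higher, which fell short of 2-fold after centring at 0.93.

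Sema4d, Sema4b and Sema6b differed little between the arrays. Sema4d, a semaphorin of blood cells and platelets that acts on Plxnb1, read 1673 in mesothelial cells against 1222 in liver cells, a difference of 0.45 that was -0.18 after centring. Its other 2 probe sets were at or near the control level. Sema4b read 1395 in mesothelial cells against 856 in liver cells, a difference of 0.70 that was 0.07 after centring and -0.16 with the intensity trend removed. Sema6b differed by 0.75, or 0.11 after centring and -0.32 with the trend removed. Sema4f, Sema6c and Sema7a were under the floor, with differences of 1.10, 0.31 and 0.13. Their other probe sets gave 2.54 for Sema4f, 2.03 and 1.90 for Sema6c and 0.18 for Sema7a, also under the floor. Over the 20 semaphorins the median was 1.61, or 0.97 after centring. Of the 15 above the floor, 12 were mesothelial-high, or 10 after centring, and none liver-high. For this and the family counts below, the background was 45.4% mesothelial-high and 3.83% liver-high, or 23.9% and 9.25% after centring.

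Plexins and neuropilins, the semaphorin receptors, went the same way with clear exceptions. Nrp1, which is also a co-receptor for VEGF, read 2690.0 in mesothelial cells against 543 in liver cells, 4.95-fold higher. Nrp2 read 788 in mesothelial cells against 184.5 in liver cells, 4.27-fold higher. Each neuropilin had 4 probe sets, and all 8 of these were higher in mesothelial cells. Plxnb2, a receptor of class 4 semaphorins, read 1257 in mesothelial cells against 159 in liver cells, 7.90-fold higher. Plxna1 was 6.30-fold higher, at 1013 in mesothelial cells against 161 in liver cells. Plxnb1, the receptor of Sema4d, was 6.22-fold higher, at 538 in mesothelial cells against 86.5 in liver cells, and its 2 probe sets differed by 0.25 (SD). Plxna3 and Plxna4, which class 3 and class 6 ligands use, were 5.22-fold and 4.69-fold higher.

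A few plexins did not follow. Plxna2 read 357 in mesothelial cells against 148 in liver cells, 2.41-fold higher, with a difference of 0.63 after centring, and 1 of its 3 probe sets above the floor read lower in mesothelial cells, at -0.54. Plxnd1, the endothelial receptor of Sema3e, read 77.8 in mesothelial cells against 73.7 in liver cells, a difference of 0.08 that was -0.56 after centring. Plxnc1, the receptor of Sema7a, read 322 in mesothelial cells against 273.5 in liver cells, a difference of 0.23 that was -0.40 after centring, and its other 2 probe sets above the floor gave 1.22 and -0.66. Plxnb3, a receptor of Sema5a, was under the floor at 29.1 in mesothelial cells against 28.8 in liver cells. Over these 11 receptors the median was 2.23, or 1.59 after centring, and 8 of the 10 above the floor were mesothelial-high.

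**Figure D2:**
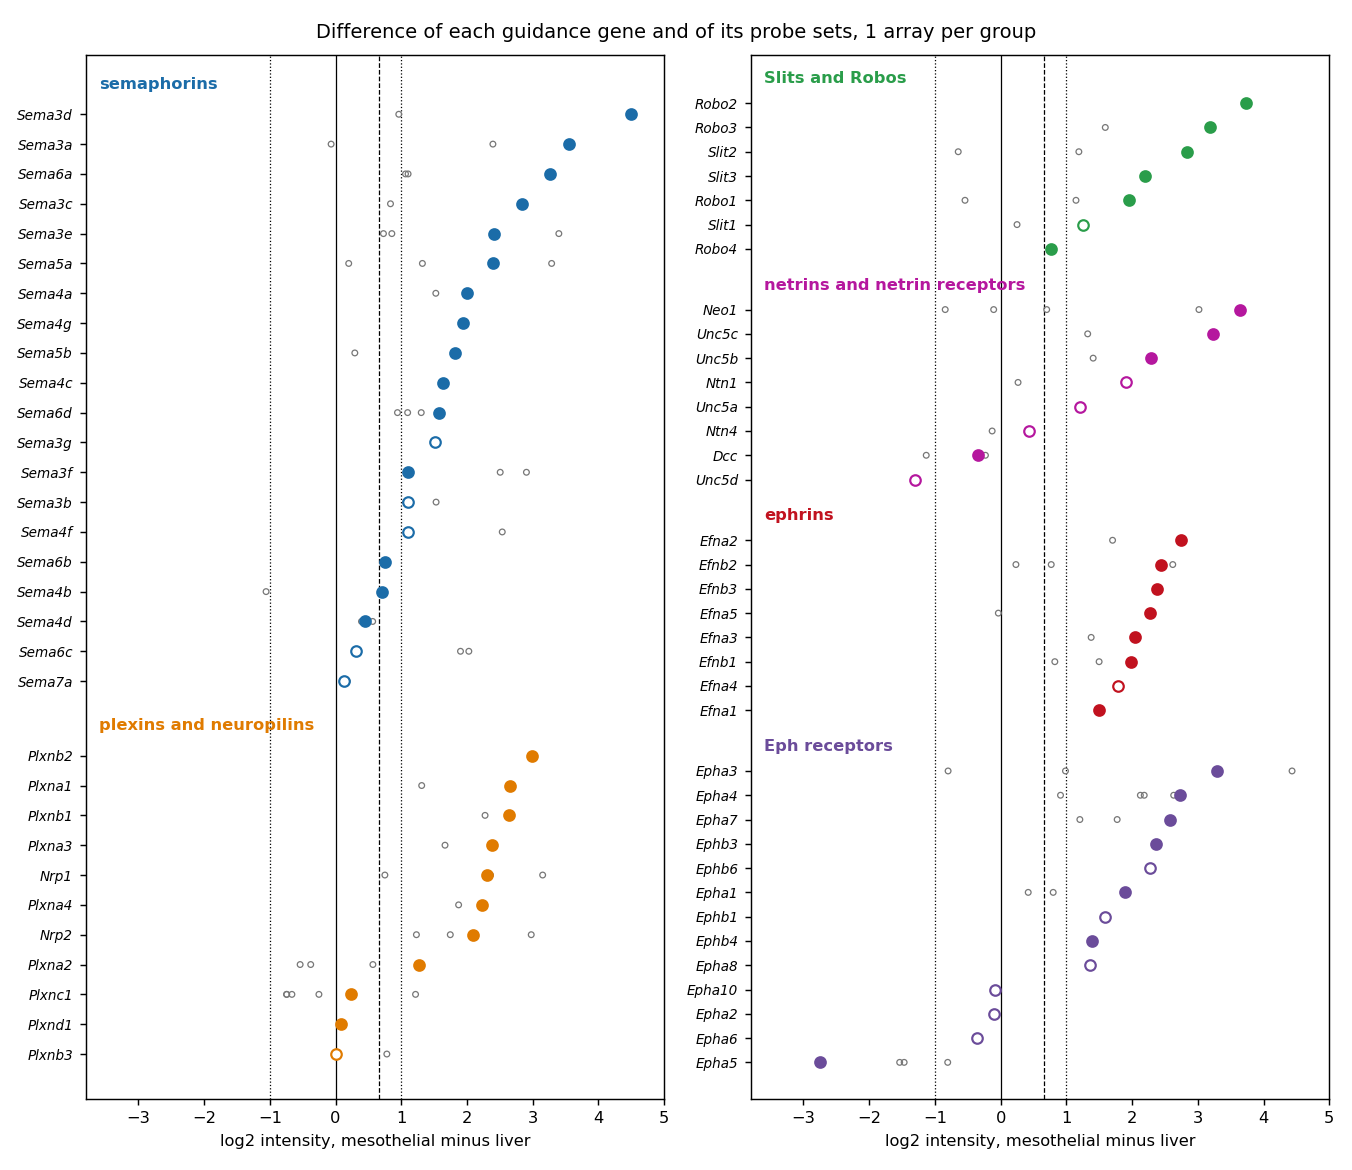
Difference in log2 intensity, mesothelial minus liver (horizontal), for each of the 67 guidance genes by family. Large symbols stand for the gene's value, filled above the floor and open under it, and small grey circles for its other probe sets. The solid line is at 0, dotted lines mark 2-fold, and the dashed line is the median of all genes (0.66). Sema3d at 4.49 is furthest to the right and Epha5 at -2.75 furthest to the left.

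Slits and Robos were brighter in mesothelial cells on both sides of the pathway. Slit2, a secreted repellent, read 1104 in mesothelial cells against 155 in liver cells, 7.13-fold higher. Its second probe set above the floor gave 1.19, and the third, at the control level in mesothelial cells, gave -0.65. Slit3 read 111 in mesothelial cells against 24.2 in liver cells, 4.58-fold higher. Slit1 was under the floor with a difference of 1.26. Robo1, the widely expressed receptor of the family, read 3434 in mesothelial cells against 885 in liver cells, 3.88-fold higher, while its other probe sets gave differences of 1.15 and -0.54. Robo2 was 13.4-fold higher, at 191 in mesothelial cells against 14.3 in liver cells. Robo3, which in mice controls the crossing of commissural axons, was 9.06-fold higher, at 99.7 in mesothelial cells against 11.0 in liver cells. Robo2 and Robo3 were thus close to the control level of 10.5 in liver cells, Robo3 just above it, so their folds rest on a value that is hard to tell from background. Robo4, the endothelial member, read 94.9 in mesothelial cells against 55.7 in liver cells, a difference of 0.77 that was 0.13 after centring and -0.27 with the trend removed. The median over the 7 genes was 2.20, or 1.56 after centring, and it was 1.19 when a gene's value was the median over its probe sets.

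Among netrins and their receptors, both ligands were under the floor and 3 receptors were mesothelial-high. Ntn1 read 50.6 in mesothelial cells against 13.5 in liver cells, and Ntn4, a basement membrane netrin, 39.2 and 29.0, both under the floor. Unc5c, a repulsive netrin receptor, read 592 in mesothelial cells against 63.3 in liver cells, 9.36-fold higher, while its second probe set above the floor gave 1.32. Unc5b, known from endothelial cells, read 102 in mesothelial cells against 20.8 in liver cells, 4.89-fold higher. Neo1, a receptor for netrins and for repulsive guidance molecules, read 1091 in mesothelial cells against 87.1 in liver cells, 12.53-fold higher. Its other probe sets disagreed, with differences of 3.02, 0.70, -0.11 and -0.84, the last at the control level in mesothelial cells, so that the median over its 5 probe sets was 0.70. Dcc, the attractive netrin receptor, read lower in mesothelial cells, at 61.2 against 77.6 in liver cells, a difference of -0.34, and its second probe set above the floor gave -0.23. The third was at the control level on both arrays. Unc5a and Unc5d were under the floor, with differences of 1.21 and -1.31. With the probe set of highest mean, the receptors above the floor thus split, with Neo1, Unc5b and Unc5c mesothelial-high and Dcc not. Neo1 fell short of 2-fold with the median over its probe sets. Over the 8 genes of this group the median was 1.56, or 0.92 after centring. It was 0.89 when a gene's value was the median over its probe sets.

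All 8 ephrins read higher in mesothelial cells, and all 7 above the floor were mesothelial-high, or 6 after centring, when Efna1 fell short. Efna2, anchored by a lipid like the other ephrin-As, read 1148 in mesothelial cells against 171 in liver cells, 6.72-fold higher. Efna5 read 767 in mesothelial cells against 159 in liver cells, 4.83-fold higher, while its second probe set differed by -0.03. Efnb2, a transmembrane ephrin that marks arterial endothelium in mouse embryos, read 621 in mesothelial cells against 115 in liver cells, 5.41-fold higher, and the other probe set above the floor gave 2.62. Efnb3 was 5.19-fold higher, at 139 in mesothelial cells against 26.8 in liver cells, and Efnb1 3.94-fold, at 329 and 83.4. Efna3 was 4.14-fold higher at 81.6 in mesothelial cells against 19.7 in liver cells, and Efna1 2.83-fold at 169 and 59.8, with the second Efna1 probe set at 1.51 beside 1.50. Efna1 was at 0.86 after centring, 0.74 after quantile normalization and 0.44 with the trend removed. The ephrins had a narrow range, from 1.50 to 2.75, with a median of 2.16, or 1.52 after centring. Efna4, under the floor, differed by 1.78.

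Eph receptors went both ways: 9 of the 13 read higher in mesothelial cells and 4 lower, with a median of 1.59, or 0.95 after centring. Of the 7 above the floor, 6 were mesothelial-high and 1 liver-high, and 5 and 1 after centring. Epha4, which binds ephrins of both classes, read 1145 in mesothelial cells against 173 in liver cells, 6.61-fold higher, and its second probe set above the floor gave 2.18. Epha7 was 5.96-fold higher, at 589 in mesothelial cells against 98.7 in liver cells, and its second probe set above the floor gave 1.77. Some of the dimmer probe sets of Epha4 and Epha7 were at the control level in liver cells. Epha3 was 9.80-fold higher, at 409 in mesothelial cells against 41.7 in liver cells, but its probe sets ran from -0.80 to 4.43. Ephb3 was 5.14-fold higher, at 103 in mesothelial cells against 20.0 in liver cells, and Epha1 3.72-fold, at 115 and 31.0. The other 2 probe sets of Epha1 were under the floor at 0.42 and 0.80, its median over probe sets was 0.80, and with the trend removed it was at 0.85, both short of 2-fold. Ephb4, the venous receptor of Efnb2 in mouse embryos, was 2.63-fold higher, at 228 in mesothelial cells against 86.8 in liver cells, and at 0.76 after centring it fell short of 2-fold.

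Epha5 stood apart as the single liver-high guidance gene above the floor. It read 19.7 in mesothelial cells against 132 in liver cells, a difference of -2.75 or 6.71-fold. The value in mesothelial cells was close to the control level of 16.2, so this fold rests on a value hard to tell from background. The other 3 probe sets gave -0.81 to -1.54, but they were at the control level in mesothelial cells and read no more than 21.3 in liver cells. The median over the 4 Epha5 probe sets was -1.50. Of the 6 Eph receptors under the floor, Ephb6, which lacks kinase activity, read at least 4.39-fold above liver cells in the mesothelial sample, Epha8 at least 1.90-fold above, and Ephb1 differed by 1.59. Epha2, Epha10 and Epha6 differed by -0.10, -0.08 and -0.36, the last with both arrays at the control level.

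Ligands and receptors were then set side by side as 88 pairs, drawn from 91 listed pairs of which 3, those with Ephb2, were not analysed here. Class 3 semaphorins other than Sema3e were crossed with both neuropilins, and ephrins with most Eph receptors of their class. Such pairs were thus listed by family, and how well each ligand binds each receptor was not weighed. In 42 pairs both partners were above the floor and mesothelial-high, and in 31 pairs after centring. In 22 pairs this held for the ligand alone, in 16 for the receptor alone and in 8 for neither. Pairs share members, so they are not independent counts. Of single guidance genes above the floor, 83.7% were mesothelial-high, against 45.4% of all genes, and 73.5% against 23.9% after centring. Whether partners were high together beyond these shares was not tested. Each gene's probe set of highest mean was used for the pairs. With the median over probe sets, Slit2 was at 1.19 and Robo1 at 1.15 before centring. Sema3d, Sema3a and Sema3c were each higher together with both neuropilins, and Slit2 and Slit3 together with Robo1 and Robo2, before and after centring. In contrast, Sema3e and Sema4a were higher without Plxnd1, and Sema5a without Plxnb3. Plxnb1 and Plxnb2 were high while their ligand Sema4d differed by 0.45. Sema7a and Plxnc1 were neither. For netrin 1 the pairs had the receptor alone in 3 of 6 and neither in 3, since Ntn1 was under the floor. Of the 12 pairs of an ephrin-B, 9 had both partners higher, or 6 after centring. Of the 40 pairs of an ephrin-A, 16 had both, or 12 after centring. The ligand alone was higher in 16 before centring, the pairs with Epha2, Epha5, Epha6 and Epha8. Of these receptors, Epha2, Epha6 and Epha8 were under the floor.

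**Figure D3:**
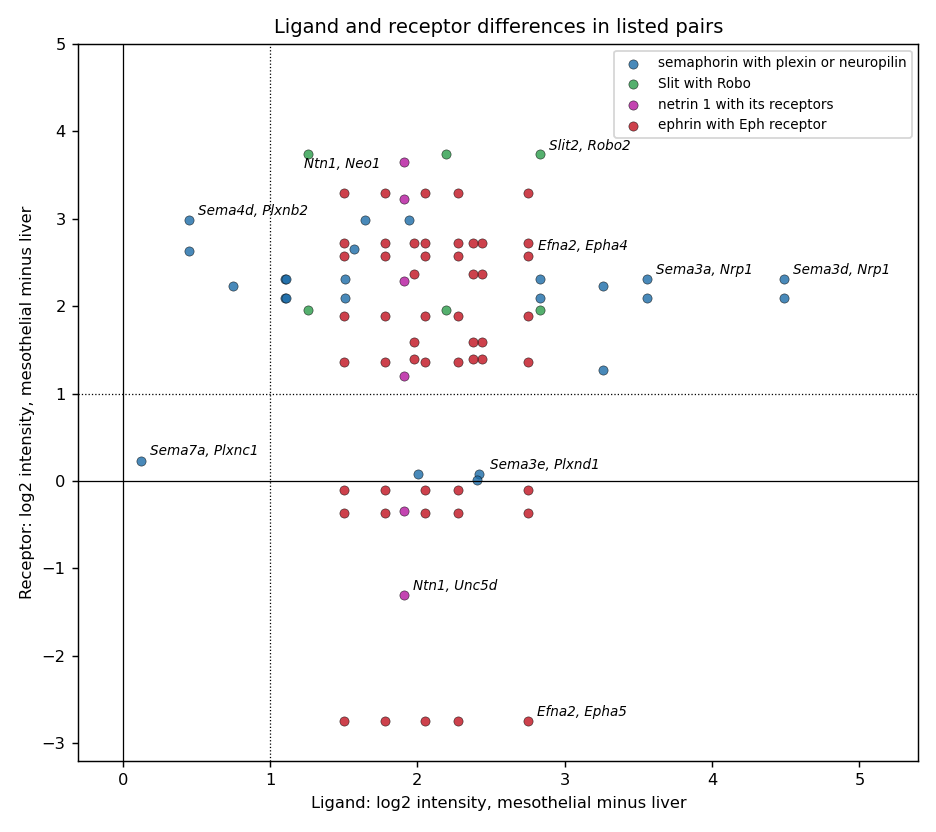
Each point is a listed pair, with the ligand's difference in log2 intensity, mesothelial minus liver, on the horizontal axis and the receptor's on the vertical axis, coloured by pathway. Dotted lines mark 2-fold. Sema3d with Nrp1 lies furthest right, at 4.49 and 2.31, and the pairs of Epha5 form the row at -2.75.

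Ligands and receptors had like medians, 1.91 over 33 ligands and 2.03 over 34 receptors. All 33 ligands read higher in mesothelial cells, from 0.13 to 4.49, and 29 of them still did after centring. Of the receptors, 28 read higher and 6 lower, from -2.75 to 3.74, and 25 read higher after centring. Over all genes, 77.6% read higher in mesothelial cells as deposited and 51.2% after centring.

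Other genes of guidance signalling, from a list of 59 of which 58 were measured, showed a median of 1.40, or 0.77 after centring. Of the 48 above the floor, 33 were mesothelial-high and 1 liver-high, against the background of 45.4% and 3.83%, and 22 and 1 after centring, against 23.9% and 9.25%. The list held ligands and adhesion proteins beside intracellular effectors. Flrt1 and Flrt3, membrane proteins with leucine-rich repeats, were 28.9-fold and 10.6-fold higher, at 505 and 552 in mesothelial cells and 17.5 and 52.2 in liver cells. The 2 probe sets of Flrt1 differed with an SD of 2.15. Flrt2, a ligand of Unc5 receptors, was 9.40-fold higher, at 1180 in mesothelial cells against 125.5 in liver cells. Mical2, of the family of actin-oxidising enzymes that act below plexins, was 13.2-fold higher, at 965.5 in mesothelial cells against 73.1 in liver cells. The lowest probe set differences of Flrt2 and Mical2 were 0.52 and 0.99. Dscam, another netrin receptor, read lower in mesothelial cells, at 17.4 against 63.3 in liver cells, a difference of -1.86. Its 5 probe sets ran from -1.86 to 0.76, and 17.4 was close to the control level of 16.2 in mesothelial cells. The next lowest were Nck1 at -0.21, Mical3 at -0.17 and Arhgef12 at 0.03, a nucleotide exchange factor that binds class B plexins.

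Markers of other cells moved in the same RNA, and their part in the guidance gene values was not tested. The background for the counts that follow is again 45.4% mesothelial-high, or 23.9% after centring. All 6 stellate and submesothelial genes were mesothelial-high, with a summed intensity of 5204 in mesothelial cells against 1060 in liver cells, as were all 6 muscle genes, at 3455 and 608.5, and all 5 megakaryocyte genes, at 20049 and 6256. After centring these counts were 4 of 6 stellate, 4 of 6 muscle and 2 of 5 megakaryocyte genes. The lowest probe set differences were -0.78 for Reln, -0.68 for Lrat, -0.03 for Ngfr, -0.12 for Myod1 and -1.05 for Ttn. No probe set of the other stellate and muscle genes read lower in mesothelial cells. Ttn, at 1.02, was close to the threshold. Of the 5 macrophage genes, 4 were mesothelial-high, and 2 after centring, with sums of 4089 in mesothelial cells against 1071 in liver cells. Of the 8 endothelial genes, which bear on Robo4, Plxnd1, Ephb4 and Efnb2, 3 were mesothelial-high (Tek, Kdr and Stab2) and 1 after centring, with sums of 2428 in mesothelial cells against 1092 in liver cells, while Pecam1 and Emcn read -0.28 and -0.44. Of the 3 lymphatic endothelial genes, Flt4 was 4.20-fold higher, while Prox1 differed by 0.67 and Lyve1 by 0.15, or 0.03 and -0.49 after centring. Neural and neural crest genes were dim, with 5 of 8 measured, 1 of them above the floor (Elavl4, at 31.7 in mesothelial cells against 46.0 in liver cells) and sums of 187 in mesothelial cells against 145.5 in liver cells. The neuronal tubulin gene Tubb3 was at the control level in mesothelial cells. Of the hepatoblast genes 2 of 7 were mesothelial-high, Hnf4a and Dlk1, and none after centring. Erythroid genes went the other way, with 5 of 6 liver-high and sums of 5510 in mesothelial cells against 21650 in liver cells. So did 4 of 5 granulocyte genes, with sums of 2693 and 5331. The other granulocyte gene, Mpo, differed by 0.79. It read 2552 in mesothelial cells against 1477 in liver cells and made up most of the mesothelial sum. The liver-high background was 3.83%, or 9.25% after centring, when both liver-high counts were the same.

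**Figure D4:**
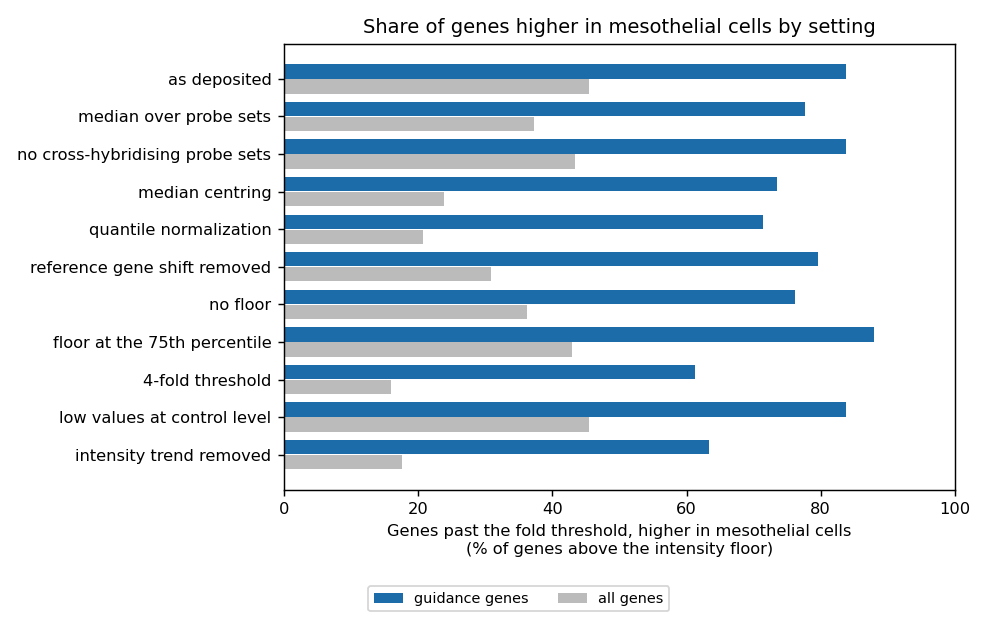
Share of genes above the intensity floor that passed the fold threshold towards mesothelial cells (horizontal, percent), for guidance genes (blue) and all genes (grey), under each way of processing (down the page). The guidance gene share lay between 61.2% and 88.0%, and the share of all genes between 15.9% and 45.4%.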

How the data were processed

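Per the labels' protocols, total RNA of each sample went through NuGEN Ovation amplification, was tagged with biotin and was hybridised to Affymetrix mouse arrays. The deposited numbers are intensities per probe set, and their range shows a linear scale. RMA and Partek stand in the submitters' processing notes without version or role. RMA output is commonly log2, so log2 was taken here. The quantiles of the 2 arrays differ, and no genome build is given in the sources used here. A free-text label describes far younger embryos than the stated age, which was used.

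Of 45101 probe sets, 34945 other than controls had 1 gene symbol in the platform annotation, and 932 had several and were not used. All 67 symbols matched RefSeq by gene ID. The SD given for a gene compares its probe sets on the same arrays and holds no variation between samples. Pooled over probe sets above the floor, it was 1.25 in 21 guidance genes and 0.70 in 5323 genes. Counts use a threshold of 1 on the log2 scale and a floor at the array median. With 1 array per group there is no test, and the number of arrays limits the precision. Tables were computed in Python 3.11.15 with pandas 2.3.3 and checked on simulated arrays.

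The guidance genes, the lists of pathway and marker genes and the pairs were chosen with earlier results of these data known. All guidance genes could be named, and the pathway genes named were the 4 with the largest and the 4 with the lowest difference above the floor. Alternatives were other rules for probe sets, scaling, floors and thresholds, and 1 that removed the intensity trend was added after seeing the data.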

Additional observations from a re-analysis of the deposited data

How the results depend on the processing

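As deposited, 41 of 49 guidance genes above the floor exceeded 2-fold towards mesothelial cells, and the count was 38 with the median over probe sets, 41 without cross-hybridising probe sets, 36 after median centring, 35 after quantile normalization, 39 after removing the reference gene shift, 31 after removing the intensity trend and 30 at 4-fold. A floor at the 75th percentile left 22 in mesothelial cells and 0 in liver cells, because only 25 guidance genes passed it. The count in liver cells was 1 otherwise, and it was 2 under quantile normalization (Dcc added), with no floor (Unc5d added) and with the intensity trend removed (Dcc added). Unc5d was at the control level in mesothelial cells. The median difference lay between 1.26 and 1.95 under the other alternatives except with the trend removed, where it was 1.15. The share of all genes above the floor moved with these settings too, at 45.4% as deposited, 37.2% with the median over probe sets, 43.4% without cross-hybridising probe sets, 30.8% after removing the reference gene shift and 42.9% with the floor at the 75th percentile. Under all changes of scaling and probe set rule, 30 genes stayed at least 2-fold higher in mesothelial cells. Neo1 fell out with the median over probe sets, Epha1 there and with the trend removed, Efnb1, Sema4a and Sema4g with the trend removed, Sema4c there and under quantile normalization, and Plxna2, Sema3f, Sema6d, Ephb4 and Efna1 under several settings. No paired analysis was possible because each group has 1 array, and none could be left out. Without detection flags, values near 16.2 in mesothelial cells and 10.5 in liver cells cannot be told from background.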

Other observations

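The SD between probe sets of a gene, pooled over genes, was 1.25 over 21 guidance genes and 0.70 over 5323 genes. Of the 41 genes at least 2-fold higher in mesothelial cells, 22 had a single probe set above the floor. Of the 19 with several, 12 had every such probe set at least 2-fold higher, and 5 had at least 1 that read lower in mesothelial cells: Epha3, Neo1, Plxna2, Robo1 and Sema3a. The brightest probe set of Robo1 gave 1.96, and the others gave 1.15 and -0.54. Over all 154 guidance gene probe sets the median difference was 1.32, against 0.58 over all 34945 probe sets with 1 gene symbol. Of the 154 differences, 26 were below 0. Of all genes, by their probe set of highest mean, 22.2% read below 0.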
